A study of Mus musculus with 15 samples.

Results

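Histone H3 occupancy along gene bodies was described from the authors' tables of changed nucleosome positions in the mouse nucleus accumbens. A member was any listed position of the class that the tables call gene body, outside chromosome 1. In these tables that class began 3 kb from the gene start and ended 1 kb past the gene end, so promoters were outside it. The tables held 83219 positions in all, and 13833 of them were members: 4815 in the table of susceptible against control mice, 4761 in that of resilient against control and 4257 in that of resilient against susceptible mice. Chromosome 1, which held 10316 further gene body positions in the susceptible against control table alone, was left out. The members made up 29.0%, 29.5% and 28.4% of the positions outside chromosome 1.

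All animals were C57BL/6 mice, a common inbred laboratory strain. Susceptible and resilient mice had each met an aggressive CD1 mouse on 10 consecutive days (chronic social defeat) and were parted by a social interaction test; the control group is given by its label alone. Punches of nucleus accumbens were taken 48 hours after the last defeat and pooled from 10 mice per replicate, so all cell types of the tissue were mixed and no single animal can be seen. The 3 groups had 1 H3 sample each, of lightly fixed chromatin cut with micrococcal nuclease and precipitated with an H3 antibody. The labels tell of triplicates, but each deposited table held 1 result per pair of groups, so there was no spread between replicates and no difference between groups could be tested.

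A nucleosome is DNA wrapped around a core of histones, of which H3 is one, and micrococcal nuclease removes the DNA between nucleosomes. RNA polymerase meets these nucleosomes along the whole body of a gene, where they are loosened and rebuilt behind it, and remodelling complexes such as ACF slide and space them. Many genes of neuronal adhesion, excitability and synaptic signalling are very long, so most of their nucleosomes lie far from the promoter.

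Each table gave a position, a direction (Up or Down), a gene with its strand and bounds, and the distance from the gene start. It gave no size of the change, p-value or read count, and positions that were not selected are not analysed here. Depth is therefore unknown. Up was taken to mean higher occupancy in the first-named group, which the files do not state. With the opposite reading, every direction given here turns round. The intervals given are exact 95% intervals that cover counting error only (Clopper-Pearson for shares, Poisson for densities). Positions of the same gene are not independent, and any 2 of the tables have a group in common, so they are set side by side and not used to support each other. The positions carry no expression values, so the labelled tissue could not be checked against marker genes.

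More gene body positions were listed Down than Up in both comparisons with controls, and the directions were nearly even between the stressed groups. In susceptible against control mice 1811 of 4815 positions were Up, or 37.6% (36.2 to 39.0). The share was 40.4% over all classes of positions outside chromosome 1. In resilient against control mice 1771 of 4761 were Up, or 37.2% (35.8 to 38.6), against 38.3% over all classes. In resilient against susceptible mice 2142 of 4257 were Up, or 50.3% (48.8 to 51.8), against 48.8% over all classes. Gene bodies thus lay within 3 percentage points of the share over all classes in every table, but that share includes them. All other classes together had 41.6% (40.7 to 42.5), 38.8% (37.9 to 39.7) and 48.2% (47.2 to 49.1) Up. The intervals of gene bodies and of the other classes did not overlap in susceptible against control mice, and overlapped in both resilient tables. In gene deserts 46.5%, 46.2% and 50.3% of positions were Up, above gene bodies in both tables against controls and level with them between the stressed groups. Promoter classes, which run up to 3 kb from the gene start, had 37.2%, 32.9% and 45.8% Up. The strand of the gene made little difference: 37.3% against 37.9%, 38.2% against 36.2%, and 50.5% against 50.2% were Up on the plus and minus strands, in the same order of tables.

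The share Up was also taken for each chromosome. Over 18 autosomes the share Up ran from 32.6% (chromosome 9) to 47.9% (chromosome 3) in susceptible against control mice, with a median of 37.0%. It ran from 30.3% (chromosome 11) to 46.8% (chromosome 3) in resilient against control mice, with a median of 36.0%, and from 42.4% (chromosome 7) to 59.5% (chromosome 18) in resilient against susceptible mice, with a median of 51.2%. An autosome held 156 to 388, 151 to 414 and 128 to 362 positions in the 3 tables, so counting error alone gives such shares a spread. Whether chromosomes differed beyond counting error was not tested. Chromosome X held only 22, 15 and 40 members, of which 81.8%, 13.3% and 12.5% were Up. Most of these lay in the single gene Mid1, described further on.

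The 13833 positions fell in 5522 genes. Most genes had a single position: 2123 of 3028 genes in susceptible against control, 2148 of 3035 in resilient against control and 2071 of 2824 in resilient against susceptible mice. Genes with 1 position had median lengths of 44.8, 43.0 and 48.1 kb, while genes with at least 5 had medians of 451, 387 and 462 kb. Where a gene had at least 2 positions, both directions usually occurred in it, in 515 of 905, 503 of 887 and 453 of 753 genes.

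Positions in longer genes were more often Up in the resilient against control table. The share Up was 29.6% (22.8 to 37.1) of 169 positions in genes under 10 kb, 32.1% (28.8 to 35.6) of 756 in genes of 10 to 30 kb, 35.4% (33.0 to 37.8) of 1555 in genes of 30 to 100 kb, 39.0% (36.3 to 41.7) of 1329 in genes of 100 to 300 kb and 43.1% (39.9 to 46.3) of 952 in genes of 300 kb and over. The step was the same way at each class, and the intervals of the genes under 30 kb and of the longest genes did not overlap. The same classes of susceptible against control mice had 33.7%, 37.5%, 36.0%, 38.2% and 40.1% Up. Those of resilient against susceptible mice had 45.6%, 48.2%, 50.5%, 49.6% and 53.4% Up. In both of those tables the intervals of the shortest and longest classes overlapped.

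**Figure D1:**
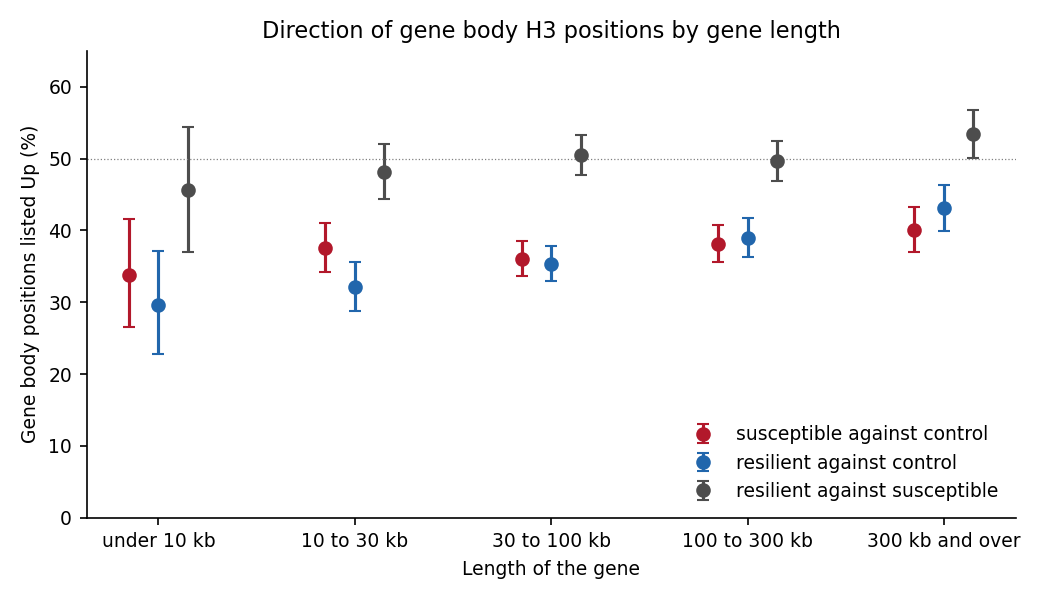
Percent of gene body H3 positions listed Up (vertical axis) in 5 classes of gene length (horizontal axis), by comparison; points are shares of positions and bars exact 95% intervals, counting error only. The resilient against control share climbs from 29.6% in genes under 10 kb to 43.1% in genes of 300 kb and over, while all resilient against susceptible shares lie between 45.6% and 53.4%.

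Put as a difference between genes of at least 100 kb and genes under 30 kb, the share Up was 9.01 percentage points higher in the long genes of the resilient against control table (40.7% of 2281 positions against 31.7% of 925). The 95% interval of that difference, by the normal approximation over positions, ran from 5.40 to 12.6. In susceptible against control mice the difference was 2.05 points (-1.59 to 5.69), and in resilient against susceptible mice 3.47 points (-0.563 to 7.51). Intervals that include 0 do not show that long and short genes were alike there. Whether the 3 differences differ from each other was not tested.

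The difference was then taken within each autosome. Long genes had the higher share in 14 of 18 autosomes of the resilient against control table, with differences from -4.37 points (chromosome 3) to 20.1 points (chromosome 2) and a median of 6.93. In susceptible against control mice long genes were higher in 11 of 18, from -12.6 (chromosome 9) to 24.2 points (chromosome 18), with a median of 1.25. Between the stressed groups they were higher in 13 of 18, from -14.5 (chromosome 16) to 20 points (chromosome 12), with a median of 4.53. Some of these rest on few positions, such as the 14 positions in short genes of chromosome 18 in the susceptible against control table. Leaving out any 1 autosome left the pooled differences between 1.39 and 2.92, 8.05 and 9.94, and 2.93 and 4.26 points.

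**Figure D2:**
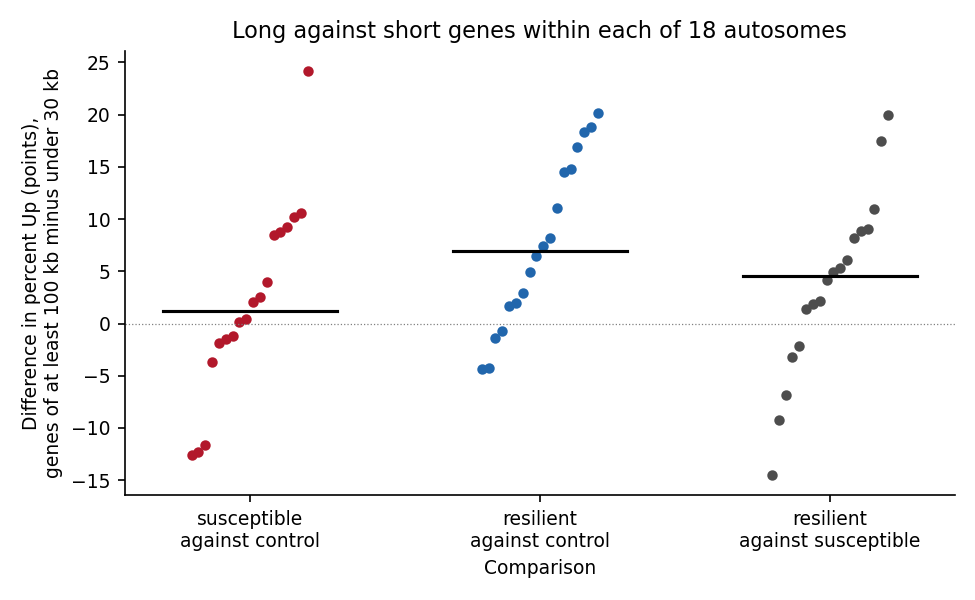
Difference in percent Up (points) between genes of at least 100 kb and genes under 30 kb within each autosome other than chromosome 1; each dot is 1 autosome, ordered by its value within a comparison, and the bar is the median. Resilient against control has 14 of 18 dots above 0 and a median of 6.93, against medians of 1.25 and 4.53 in the other comparisons.

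Distance from the gene start gave the same picture, as distance and length go together. Of resilient against control positions, 29.3% (23.5 to 35.6) of the 232 within 5 kb of the start were Up, 34.6% of 1256 at 5 to 20 kb, 35.0% of 1154 at 20 to 50 kb, 37.8% of 789 at 50 to 100 kb, 40.4% of 643 at 100 to 200 kb and 44.5% (40.8 to 48.3) of 687 at 200 kb and over. Between the stressed groups the share stayed between 48.3% and 51.6% up to 200 kb and was 55.3% (51.4 to 59.3) of 636 positions beyond. In susceptible against control mice it was 34.4% (28.6 to 40.4) under 5 kb and lay between 35.8% and 39.6% from there on, with no order along the gene.

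Positions were sparser per length of gene in long genes. Genes named in any class of any table outside chromosome 1 served as the denominator, each with its longest listed length. In susceptible against control mice there were 31.8 (27.1 to 37.1) positions per Mb in genes under 10 kb, 22.4 in genes of 10 to 30 kb, 12.2 in genes of 30 to 100 kb, 7.34 in genes of 100 to 300 kb and 4.48 (4.21 to 4.77) in genes of 300 kb and over. The resilient against control densities were 33.0, 21.0, 12.4, 7.16 and 4.47 per Mb, and the resilient against susceptible densities 26.3, 19.1, 10.5, 6.66 and 4.13. A short gene enters that denominator only if it holds a listed position, so this fall is in part built in. The density was therefore also taken over genes named by a promoter-class position, a choice that uses no gene body position and was made after the first densities were seen. The length counted here was that open to the class, without the first 3 kb and with 1 kb past the gene end. Over that length, genes named in any class had 50.2, 52.1 and 41.5 positions per Mb under 10 kb in the 3 tables. At 300 kb and over they had 4.50, 4.49 and 4.14. Genes named by a promoter-class position had 22.5 (15.9 to 30.9), 12.3, 14.1, 9.68 and 6.97 (5.45 to 8.78) per Mb in susceptible against control mice. They had 15.4, 13.4, 13.3, 7.57 and 6.19 in resilient against control mice, and 16.6, 12.6, 11.2, 6.87 and 6.97 in resilient against susceptible mice. Among these genes both classes over 100 kb had lower densities than each shorter class in every table, though only 18 genes made up the longest class.

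**Figure D3:**
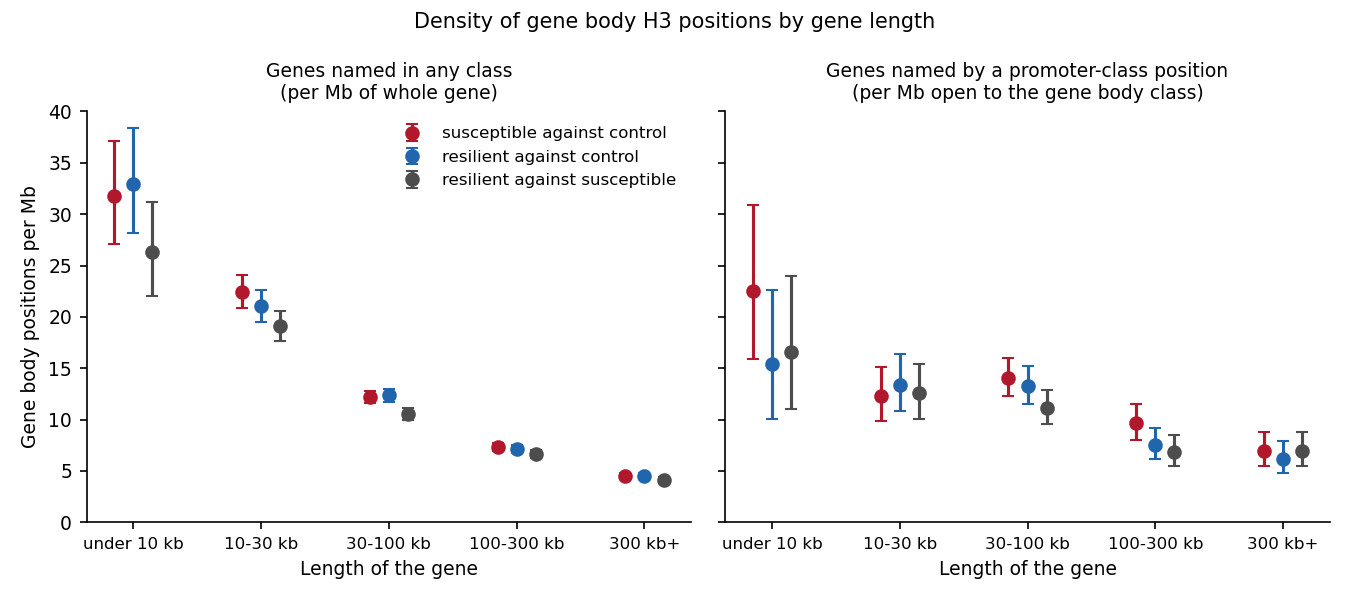
Gene body H3 positions per Mb (vertical axes) in 5 classes of gene length (horizontal axes); points are densities and bars exact Poisson 95% intervals. Left, genes named in any class, per Mb of whole gene, where density falls from 31.8 to 4.48 in susceptible against control mice. Right, genes named by a promoter-class position, per Mb open to the gene body class, where it falls from 22.5 to 6.97. The sides thus count different lengths. Over the length of the right side, genes named in any class would go from 50.2 to 4.50.

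Positions lay along the whole gene, with somewhat more towards its end in genes of at least 30 kb. Place was measured from the gene start (0%) to the gene end (100%) of the transcript listed with the position, in genes of at least 30 kb, and the first 3 kb were left out of the length. The part beyond the midpoint of the gene held 54.1% (52.5 to 55.7) of 3814 positions in susceptible against control mice. It held 53.7% (52.1 to 55.3) of 3797 in resilient against control and 52.8% (51.1 to 54.5) of 3412 in resilient against susceptible mice. The available length, summed once per gene, gives 50.9%. That sum is weighted to the longest genes, while the 3 kb left out raise the share beyond the midpoint more in shorter genes. A share of length weighted by where the positions lie was not computed, so the excess can be overstated. With each gene cut into 10 equal stretches, the density went from 8.54, 8.83 and 8.37 positions per Mb in the first stretch to 12.0, 12.0 and 10.0 in the ninth and 11.8, 11.0 and 10.7 in the last. The 3 kb left out take a larger part of the first stretch in shorter genes, where positions were denser. Part of this rise can thus be built in. In genes of at least 100 kb the first stretch had 7.49, 7.66 and 6.96 per Mb and the fifth 6.97, 6.76 and 6.19. The ninth had 8.96, 8.71 and 7.72 there, and the last 8.47, 7.74 and 8.21. In genes of at least 100 kb the stretch beyond the midpoint held 51.8%, 52.7% and 52.8% of positions, against 50.5% of the length. The excess over the length was smaller than at 30 kb and over in both tables against controls, and not in resilient against susceptible mice. The interval for susceptible against control mice (49.8 to 53.9) then included the available length. Without the 10 genes with the most positions, that stretch held 51.3% (49.2 to 53.4), 52.5% (50.4 to 54.7) and 52.1% (49.8 to 54.3). All of these intervals included the available length, 50.5%.

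Direction hardly varied with place. Before and beyond the midpoint, 38.0% and 37.5% were Up in susceptible against control, 38.2% and 38.9% in resilient against control, and 49.9% and 52.0% in resilient against susceptible mice. Over the 10 stretches the share Up ran from 34.1% to 40.1%, from 35.7% to 40.8% and from 47.0% to 55.7%, with intervals that overlapped. In genes of 300 kb and over of the resilient against control table, 40.6% (36.0 to 45.4) of 443 positions before the midpoint and 45.4% (41.0 to 49.8) of 507 beyond it were Up. Over genes of all lengths, the first stretch held 5.44%, 5.71% and 5.99% of the positions and the ninth 12.1%, 11.8% and 10.9%. Promoter classes take the start of short genes, and the median place was 81.2%, 84.8% and 84.6% in genes under 10 kb. Of all members, 325 lay past the gene end.

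**Figure D4:**
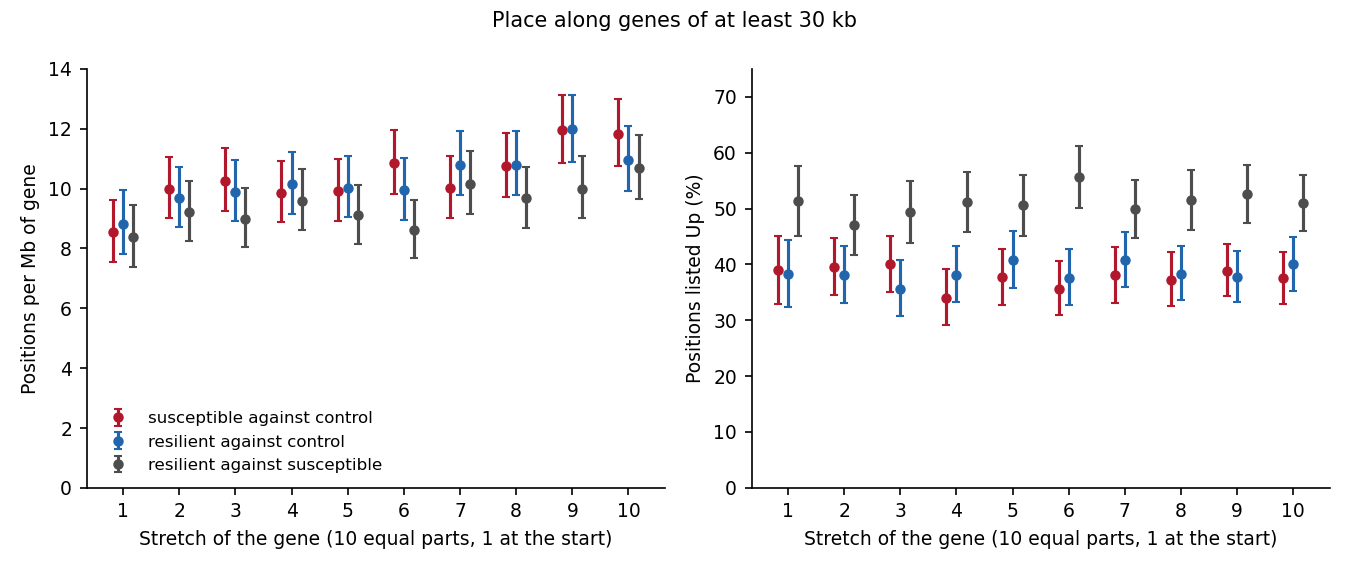
Place along genes of at least 30 kb, in 10 equal stretches from gene start (1) to gene end (10); left, positions per Mb of available gene length with Poisson 95% intervals, right, percent of positions listed Up with Clopper-Pearson 95% intervals. Density goes from 8.54 per Mb in the first stretch to 12.0 in the ninth in susceptible against control mice, while the share Up shows no order. Part of this rise can come from the 3 kb left out of the first stretch. In genes of at least 100 kb, not drawn, the density goes from 7.49 to 8.96.

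Changed nucleosomes seldom lay side by side. Only 14, 6 and 10 pairs of neighbouring positions in the same gene were within 200 bp of each other, about the span of a nucleosome and its linker, and the closest were 120, 110 and 100 bp apart. Within 1 kb there were 85, 49 and 66 pairs, and 57.6%, 67.3% and 81.8% of them had the same direction. Neighbouring positions in different genes had the same direction in 54.9%, 56.2% and 51.0% of pairs. Of the 66 close pairs in resilient against susceptible mice, 22 lay in Mid1 and 5 in Sfi1. Without Mid1, Sfi1 and Gm13152, a choice made after seeing the data, the share with the same direction was 50.8% of 63, 61.0% of 41 and 69.2% (52.4 to 83.0) of 39 pairs. From 1 kb to 100 kb apart, neighbours of 1 gene had the same direction in 51.5% to 58.2% of pairs.

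Most positions of any gene were found at Sfi1, Mid1, Gm13152 and Fhit. Sfi1, which encodes a centrin-binding protein of the centrosome, spans 3031852 to 3093466 of chromosome 11 (mm9, minus strand, 61.6 kb). It held 30 positions in susceptible against control mice, 21 of them Up, 20 positions in resilient against control mice, none Up, and 26 in resilient against susceptible mice, none Up. They were spread from 5.12% to 99.8% of the gene, at 48.7, 32.5 and 42.2 positions per 100 kb, the highest density in each table among genes with at least 5 positions. Sfi1 was thus mostly Up in susceptible mice and Down throughout in resilient mice against either other group.

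Mid1, a gene for a microtubule-bound ubiquitin ligase that spans the pseudoautosomal boundary in laboratory mice, lies at 166317553 to 166428729 of chromosome X (plus strand, 111 kb). It held 16 positions in susceptible against control mice (14 Up), 8 in resilient against control mice (0 Up) and 27 in resilient against susceptible mice (0 Up). All of them lay between 83.3% and 101% of the gene, within 19.3 kb at its end, and none in the rest of the gene. Gm13152, a predicted gene of chromosome 4 (146549974 to 146887529, plus strand, 338 kb), held 18 positions (11 Up), 29 (3 Up) and 19 (3 Up), from 14.3% to 99.7% of its length. The 3 genes together were the ones where positions piled up, and in each the resilient tables were mostly Down.

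Fhit, a fragile-site gene for a diadenosine triphosphate hydrolase, is 1612 kb long (chromosome 14, 10382607 to 11994546, minus strand). It held 19 positions (11 Up) in susceptible against control, 21 (16 Up) in resilient against control and 16 (8 Up) in resilient against susceptible mice, placed from 0.420% to 97.6% of the gene. Its density of 1.18, 1.30 and 0.993 positions per 100 kb was far below that of Sfi1 and above the 4.48, 4.47 and 4.13 per Mb over all genes of 300 kb and over. It had more Up than Down positions against controls in both stressed groups.

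**Figure D5:**
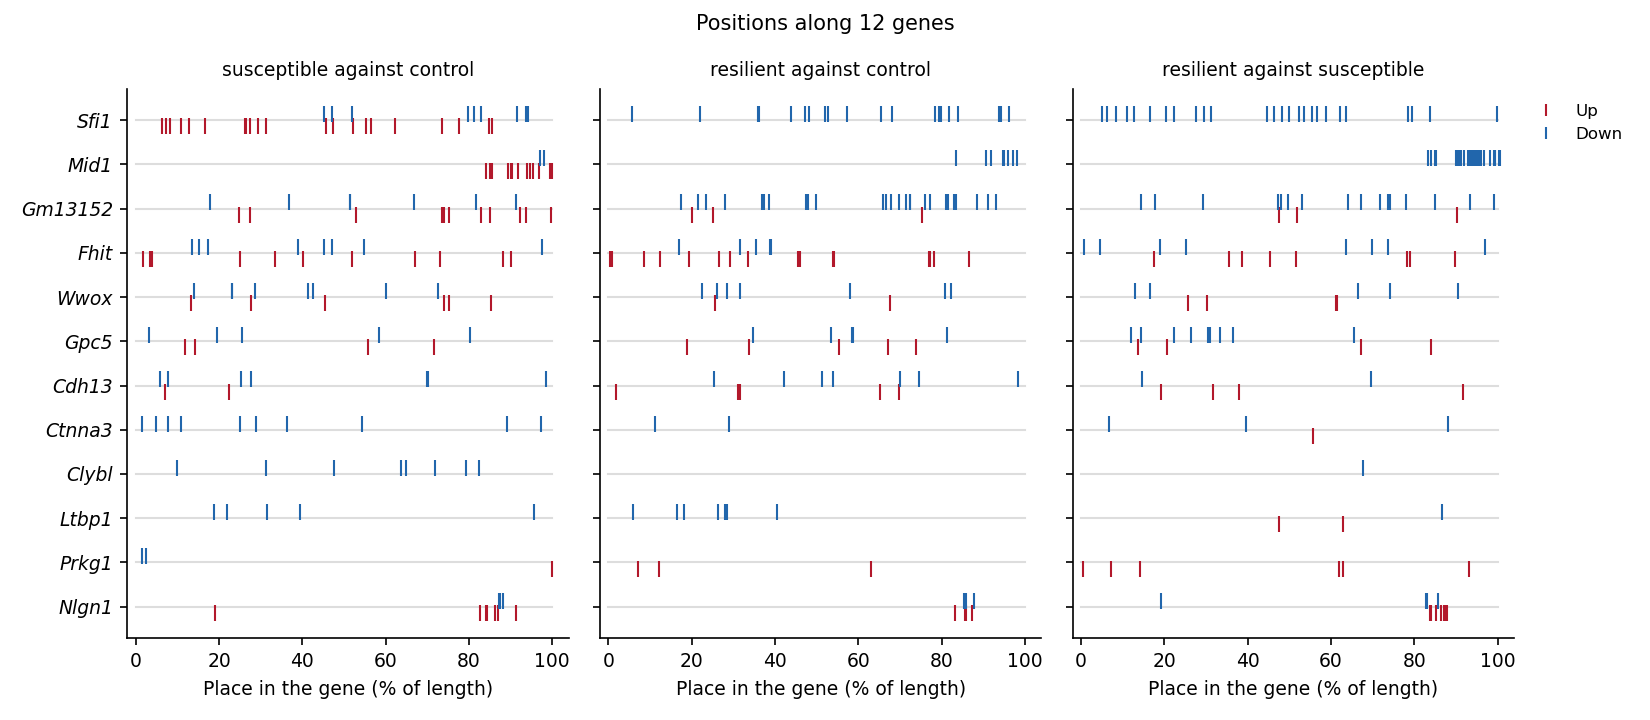
Place of every gene body H3 position in 12 named genes, as percent of the length of the listed transcript (horizontal axis); each row is a gene, each tick a position, lower red ticks Up and upper blue ticks Down. Sfi1 has 21 Up ticks in susceptible against control and none in the resilient comparisons, the Mid1 ticks are bunched between 83.3% and 101%, and in susceptible against control all ticks of Ctnna3, Clybl and Ltbp1 are Down.

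Genes with at least 5 positions all of 1 direction were uncommon. There were 11 among 95 such genes in susceptible against control mice (11.6%), 9 of 105 in resilient against control mice (8.57%) and 10 of 84 in resilient against susceptible mice (11.9%). All 11 and all 9 of those against controls were Down, while 5 were Up and 5 Down between the stressed groups. Over all members 37.6%, 37.2% and 50.3% were Up. With those shares, genes all Down are likelier than genes all Up against controls, and about as likely between the stressed groups. Whether genes of 1 direction were more frequent than the shares alone give was not tested. These percentages are the whole background, since every gene with enough positions is counted in them.

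Those with at least 6 positions of 1 direction were as follows. Ctnna3, which encodes alpha-T-catenin, a link between cadherins and actin, had 10 positions in susceptible against control mice, all Down, spread over 1493 kb of chromosome 10 from 1.44% to 97.4% of the listed transcripts. It had 2 positions in resilient against control mice (0 Up) and 4 in resilient against susceptible mice (1 Up). Clybl, a gene for a mitochondrial lyase (chromosome 14, 122580915 to 122801456, 221 kb), had 8 positions in susceptible against control mice, all Down, from 9.96% to 82.5% of the gene. None was listed in resilient against control mice and 1, Down, in resilient against susceptible mice. A gene without a listed position in a table is one where the authors selected none, and the size of the change there is not known.

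Camta1, a calmodulin-binding transcription activator gene of 802 kb on chromosome 4, had 6 positions in susceptible against control mice (0 Up), 9 in resilient against control mice (3 Up) and 4 in resilient against susceptible mice (3 Up). Cpne4, a copine gene for a calcium-dependent membrane-binding protein (chromosome 9, 465 kb), had 6 (0 Up), 5 (1 Up) and 4 (3 Up). In both genes the positions of the susceptible against control table were all Down, and 3 of 4 in the resilient against susceptible table were Up. The Cpne4 positions of the latter lay together in the middle of the gene, from 38.9% to 59.3%.

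Ltbp1, Kcnj6 and Slc39a11 met the same rule in resilient against control mice, beside Sfi1 and Mid1. Ltbp1, a gene for a protein that binds latent TGF-beta in the matrix (chromosome 17, 387 kb), had 7 positions, all Down. All lay within the first 40.4% of the transcript that each was listed with. The position at 75634352 was listed at 26.2% of a shorter transcript of 214 kb, so it lies further along the 387 kb span than that. Ltbp1 had 5 (0 Up) in susceptible against control and 3 (2 Up) in resilient against susceptible mice. Kcnj6, which encodes a potassium channel opened by G proteins (chromosome 16, 237 kb), had 6 positions, all Down, with 2 (0 Up) and 4 (2 Up) in the other tables. Slc39a11, a zinc transporter gene (chromosome 11, 321 kb), had 6, all Down, with 4 (1 Up) and 2 (0 Up). Prkg1, the gene of a cGMP-dependent protein kinase (chromosome 19, 1201 kb), was the one gene with at least 6 positions all Up, in resilient against susceptible mice. Its 6 positions ran from 0.458% to 93.0% of the gene, and it had 3 of 3 Up in resilient against control mice and 1 of 3 in susceptible against control mice.

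The other genes with the most positions were long and mixed. Wwox, a fragile-site oxidoreductase gene of 913 kb, had 6 of 14, 2 of 9 and 4 of 9 positions Up. Gpc5, a glypican gene of 1433 kb, had 4 of 9, 5 of 10 and 4 of 13. Cdh13, the T-cadherin gene of 1040 kb, had 2 of 9, 5 of 12 and 4 of 6. Each of these held both directions in every table.

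Sdk1, an adhesion gene of 972 kb, had 3 of 11 positions Up in susceptible against control, 1 of 10 in resilient against control and 5 of 9 in resilient against susceptible mice. Fhod3, a formin gene of actin assembly (424 kb), had 3 of 12, 1 of 5 and 5 of 6. Tmem132d, a gene of a membrane protein of 675 kb, had 4 of 11, 1 of 7 and 2 of 5. More Down than Up positions were listed in these genes against controls, as over all members (37.6% and 37.2% Up). Col23a1, a transmembrane collagen gene of 294 kb, had 4 of 12 Up in susceptible against control mice and 0 of 4 and 0 of 1 in the other tables.

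Skint5, of an immunoglobulin-like family known from epithelial T cell selection, had 7 of 14, 5 of 11 and 2 of 4 Up over 522 kb. Asic2, a gene of an acid-sensing ion channel (1088 kb), had 6 of 7, 2 of 4 and 3 of 9, and Adarb2, a brain gene of the RNA-editing deaminase family (557 kb), had 2 of 7, 2 of 8 and 5 of 9. Cadps2, which acts in priming of dense-core vesicles (430 kb in the resilient tables), had 0 of 2, 5 of 10 and 1 of 3, and the kinase gene Mast4 (602 kb) had 3 of 7, 4 of 10 and 2 of 3. Among these, Asic2 was mostly Up in susceptible against control mice and mostly Down in resilient against susceptible mice.

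Nlgn1, which encodes a postsynaptic adhesion protein of excitatory synapses (chromosome 3, 25330762 to 26052229, minus strand, 721 kb), had its positions bunched in a short stretch of the gene. All 7 positions of the resilient against control table lay between 83.1% and 87.8% of the gene, within 33.6 kb, and 4 were Up. The susceptible against control table listed 10 positions, 7 of them Up, with 1 at 19.1% and the other 9 between 82.7% and 91.4%. The resilient against susceptible table listed 11, 7 of them Up, with 1 at 19.1% and the other 10 between 82.7% and 87.9%. An ACF1 segment lay in Nlgn1 in each ACF1 list, covering 7800 bp in the control, 4000 bp in the susceptible and 10000 bp (2 segments) in the resilient list.

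Loxl2, a lysyl oxidase gene of 86.4 kb on chromosome 14, had 8 (2 Up), 7 (1 Up) and 7 (4 Up) positions, or 9.26, 8.11 and 8.11 per 100 kb. It was among the 5 densest genes of every table, counting only genes with at least 5 positions. Entpd4, of a nucleotidase of the secretory pathway, had 5 positions (1 Up) in 29.6 kb in susceptible against control mice. Gm13154 had 5 (2 Up) in 31.9 kb and Tc2n 5 (2 Up) in 63.0 kb in resilient against control mice, and Gm13157 had 6 (3 Up) in 55.8 kb and Skint3 5 (0 Up) in 65.8 kb in resilient against susceptible mice.

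The longest genes held few positions for their length. Ptprd, a receptor phosphatase gene of synaptic adhesion, is 2271 kb long and had 3 of 6, 5 of 9 and 4 of 6 positions Up. Cntnap2, the gene of a neurexin-like axonal adhesion protein (2241 kb), had 2 of 5, 4 of 7 and 1 of 1. The lipoprotein receptor gene Lrp1b (2057 kb) had 1 of 3, 2 of 2 and 1 of 3, Macrod2 (1995 kb) 1 of 5, 3 of 5 and 1 of 2, and Csmd1 (1643 kb) 1 of 1, 1 of 3 and 2 of 3. At most 0.396 positions per 100 kb were found in these 5 genes, against 1.30 in Fhit. At the other end, the shortest genes had 1 position each, apart from Cyp26a1, a retinoic acid hydroxylase gene of 3.73 kb with 2, both Down, in susceptible against control mice. Gsx2, a homeobox gene of striatal development and the shortest at 2.29 kb, had its position past the gene end (Up, susceptible against control), and Neurod6 (3.45 kb) likewise (Down, resilient against susceptible).

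Lists of genes by role were then counted, and each is given beside the share over all members (37.6%, 37.2% and 50.3%). These lists were chosen with earlier results of these data known, and the positions of a list often come from a few long genes. Of 34 synaptic adhesion genes 19 were named in the tables, with a median length of 938 kb. Their positions were Up in 28 of 58 (48.3%, 35.0 to 61.8) in susceptible against control, 28 of 63 (44.4%) in resilient against control and 30 of 56 (53.6%) in resilient against susceptible mice. Nlgn1 had most in the first, and Dscam, of neuronal self-avoidance, added 3 of 7 there and 5 of 7 in resilient against susceptible mice. Ptprt, another receptor phosphatase gene, had 2 of 8 Up in resilient against control and 5 of 6 in resilient against susceptible mice.

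Cadherins and catenins had 6 of 29 positions Up (20.7%, 7.99 to 39.7) in susceptible against control mice, of which 10 of the 23 Down positions were those of Ctnna3. They had 8 of 23 (34.8%) and 13 of 28 (46.4%) in the other tables. Pcdh15, a protocadherin gene, had 2 of 5, 1 of 2 and 4 of 8 Up.

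Glutamate and GABA receptor genes, 23 of 31 of them named, had 12 of 42 positions Up (28.6%, 15.7 to 44.6) in susceptible against control mice, 12 of 30 (40%) in resilient against control mice and 30 of 47 (63.8%, 48.5 to 77.3) in resilient against susceptible mice. Grm8, a metabotropic glutamate receptor gene, had 6 of 8 Up and Grik4, a kainate receptor gene, 5 of 5 in the last table, and Grik4 had 4 of 5 Up in resilient against control mice. The NMDA receptor gene Grin2a went the other way, with 1 of 5. Genes of cyclic nucleotide and calcium signalling had 10 of 32 (31.3%), 16 of 30 (53.3%) and 27 of 40 (67.5%, 50.9 to 81.4) Up. That last count included Prkg1 with 6 of 6, the phosphodiesterase gene Pde4d with 4 of 7 and Rgs6, a regulator of G protein signalling, with 4 of 6. For comparison, genes of 300 kb and over had 53.4% Up in that table.

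A list of voltage-gated channels and their subunits also held Ryr2, of a calcium release channel, and Kcnj6, of a channel opened by G proteins, which are not voltage-gated. It had 13 of 40 (32.5%), 11 of 37 (29.7%) and 9 of 27 (33.3%, 16.5 to 54.0) positions Up. This share was below that of all members in each table, with intervals that include it. Kcnip1, of a potassium channel partner, had 2 of 5, 0 of 4 and 2 of 5 Up, and Ryr2 2 of 7, 2 of 7 and 0 of 4. In resilient against control mice Ryr2 and Kcnj6 gave 5 and 6 of the 26 Down positions of the list, so its low share there rests in part on them. In resilient against control mice Cacna1d, of an L-type calcium channel, had 0 of 3, and in resilient against susceptible mice Kcnc2, of a potassium channel, had 2 of 3. Genes known from common fragile sites, which share members such as Ctnna3 with the lists above, had 38 of 96 (39.6%), 45 of 83 (54.2%, 42.9 to 65.2) and 39 of 76 (51.3%) Up, and Fhit alone gave 16 of the 45.

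Cell type markers held few gene body positions. Medium spiny neuron genes, of the main cell type of the accumbens, had 1 of 4, 4 of 5 and 3 of 4 Up, including 1 Up position in the dopamine receptor gene Drd2 in both resilient tables. Cortical excitatory genes had 1 of 5, 2 of 7 and 2 of 4, and interneuron genes 1 of 4, 0 of 4 and 1 of 3. Astrocyte genes had 4 of 10, 6 of 12 and 6 of 15, nearly all in Gpc5, and endothelial genes 4 of 12, 5 of 13 and 5 of 13, with 7, 6 and 9 positions in Mecom. Oligodendrocyte genes had 0 of 2 and 0 of 3 with none in resilient against susceptible mice, and microglial genes 0 of 1, 0 of 3 and 1 of 1. Activity-regulated genes had 1 of 1 Up in susceptible against control mice, none listed in resilient against control mice and 1 of 2 in resilient against susceptible mice, and housekeeping genes 1 position in all. Chromatin remodeller genes had 2 of 8, 2 of 5 and 5 of 10, with Baz1a, which encodes ACF1 itself, at 0 of 1 and 1 of 2 in the tables against controls. These counts are too small to set any of the cell types apart.

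Few gene body positions lay near ACF1 segments. ACF1 is the accessory subunit of the ACF remodelling complex, and the deposited ACF1 lists divide the genome into 2 unnamed states, of which the rarer was taken as a segment. Within 1000 bp of a control, susceptible or resilient segment lay 71, 71 and 55 of the 4815 positions in susceptible against control, 59, 70 and 46 of 4761 in resilient against control, and 72, 79 and 63 of 4257 in resilient against susceptible mice, or between 0.966% and 1.86%. Among positions of all other classes the shares were 1.17% to 1.73%. The share of gene length within that distance of a segment is not given here. Whether positions were fewer or more than that length gives was therefore not tested. Of the positions near a control segment, 40 of 71, 5 of 59 and 7 of 72 were Up.

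Those directions were mostly those of a few genes. Near control segments, Sfi1 had 27, 16 and 24 of the positions, Mid1 9, 6 and 20, and Gm13152 8, 11 and 9. Without these 3 genes the shares within 1000 bp fell to between 0.425% and 0.789% over all lists and tables.

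The authors' tables of shifted nucleosomes held 139, 138 and 131 gene body positions, in 112, 113 and 102 genes. Shifts were 60 to 80 bp in size with a median of 70 bp, and 58.3% (49.6 to 66.6), 50.7% (42.1 to 59.3) and 58.0% (49.1 to 66.6) were positive. The files do not state which way a positive shift points. Of the genes with a shift, 65 of 112, 62 of 113 and 54 of 102 also had a gene body occupancy position in the same comparison, and 3, 1 and 1 shifts were at the same position as one. The overlap went with gene length. In susceptible against control mice it was 7 of 28 genes at 10 to 30 kb and 17 of 18 at 300 kb and over. Among genes named by any occupancy position, which leaves out genes without one, 711 of 1806 and 310 of 400 had a member at those lengths. Whether the overlap exceeds these shares was not tested. Sfi1 had 10, 14 and 19 shifts (8, 10 and 14 positive), and Gm13152 11, 8 and 6 (10, 4 and 5 positive). Genes of 300 kb and over had 14 of 30, 15 of 28 and 19 of 23 (82.6%, 61.2 to 95.0) positive. The 3 classes from 10 to 300 kb in the same comparison had 51.5% to 58.8% positive. Their intervals (32.9 to 81.6, 37.8 to 65.7 and 33.5 to 69.2) overlapped that of the longest genes. The 23 shifts of the longest genes lay in 18 genes, and Gm13152 alone held 6 of them, 5 positive.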

How the data were processed

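Per the labels' protocols, H3-bound fragments of nuclease-digested chromatin were amplified with 15 PCR cycles and read at 100 bp. CASAVA 1.8.2 and mm9 are named in the submitters' processing notes, while the aligner and the caller of positions and segments were not named in any source used here. The deposited values are positions with a direction or a shift in bp; the pair of groups, and its order, was read from the table names. Members, gene lists and settings were chosen with earlier results of these data known. Positions were counted with Python 3.11.15, numpy 2.4.6, pandas 2.3.3 and scipy 1.17.1, and the counting was tested on simulated positions. Figures used matplotlib 3.10.9. Gene length came from the listed bounds, and the listed distance equalled the strand-aware distance to within 0 bp. Coordinates are 1-based for positions, with gene bounds as listed. Of 5522 gene symbols, 5494 matched RefSeq (GRCm38.p6, used for names only). Named genes were, per comparison, the 10 with the most positions, the 5 densest with at least 5, the 5 longest and 5 shortest, and those with at least 6 of 1 direction; for lists, up to 4 members with the most positions.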

Additional observations from a re-analysis of the deposited data

Results flagged for a closer look

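The gene body positions of chromosome 1 in susceptible against control mice were left out of the comparisons above and form a signal of their own. There were 10316 of them, while the same chromosome held 418 in the resilient against control table and 382 in the resilient against susceptible table. Only 1.62% (1.38 to 1.88) were Up, against 34.2% and 46.9% in the other tables. The share was low at every length, from 1.21% in genes of 300 kb and over to 2.29% in genes of 10 to 30 kb, and 964 genes were involved. The cause was not tested.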

How the results depend on the processing

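The tables give 1 result per pair of groups, without reads, p-values or positions that were not selected, so the effect of depth is unknown and all intervals cover counting error only. No paired analysis was possible because each group had 1 H3 sample and the tables carry no replicate numbers. No replicate was left out, as none are separate in the files. Across alternatives, 209 values of the main results stayed within the counting interval of the main value and 88 moved out of it. Some alternatives were applied to only a part of these values and moved none of that part. These were counting each gene once (3 values), joining neighbours within 200 bp (24) and leaving out chromosomes X and Y (9). Counting repeated positions once (6 values) and leaving out positions past the gene end (6) also moved none. No member was repeated within a table, so counting repeats once tests nothing for members. The 3 values counted by gene do not cover the length classes, whose shares Up were not recounted by gene. Positions past the gene end were not counted by midpoint or by stretch in genes of at least 30 kb. They were part of the median places in genes under 10 kb, where 20.2%, 21.3% and 25.7% of positions lay past the end. The totals behind the shares by stretch over genes of all lengths also held them. Leaving out positions past the gene end removed the single position of most of the shortest genes, among them Gsx2 and Neurod6.

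Including chromosome 1 changed the susceptible against control table most: 15131 positions with 13.1% Up, 16.0%, 15.9%, 12.9%, 13.4% and 11.1% Up in the 5 length classes from short to long, 12.2% and 12.8% Up before and beyond the midpoint, 56.6, 48.0, 31.6, 20.6 and 16.2 positions per Mb, 1121 shifts, and a difference between long and short genes turned round to -3.62 points. In resilient against control mice it gave 28.1, 19.1 and 11.6 per Mb in the 3 shortest classes, and in resilient against susceptible mice 17.2 and 9.84 per Mb at 10 to 30 and 30 to 100 kb.

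With length less the first 3 kb, density was 65.4, 26.5 and 12.9 per Mb in the 3 shortest classes of susceptible against control, 67.8, 24.9 and 13.1 of resilient against control and 54.1, 22.6 and 11.1 of resilient against susceptible mice. Adding the 1 kb past the gene end, an alternative chosen after seeing the data, gave 50.2 and 25.0, 52.1 and 23.5, and 41.5 and 21.3 under 10 kb and at 10 to 30 kb. Genes named by a promoter-class position gave 22.5, 12.3, 14.1, 9.68 and 6.97, then 15.4, 13.4, 13.3, 7.57 and 6.19, then 16.6, 12.6, 11.2 and, at 300 kb and over, 6.97 per Mb. Without the 10 genes with the most positions, genes of 300 kb and over had 4.14, 4.10 and 3.83 per Mb. In genes of at least 100 kb alone the stretch beyond the midpoint held 51.8% of positions in susceptible against control mice, and 41.2% of the positions there were Up in resilient against control mice.

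The share near an ACF1 segment (control, susceptible and resilient lists) rose within 5000 bp to 1.91%, 2.08% and 1.52% in susceptible against control, 1.70%, 2.04% and 1.32% in resilient against control, and 2.16%, 2.35% and 1.97% in resilient against susceptible mice. Without the 10 genes with the most positions it was 0.580%, 0.644% and 0.558%, then 0.693%, 0.779% and 0.455%, then 0.414%, 0.754% and 0.487%. Without Sfi1, Mid1 and Gm13152 it was 0.568%, 0.631% and 0.547%, then 0.553%, 0.744% and 0.425%, then 0.454%, 0.789% and 0.597%. Pairs of neighbours per position were 0%, 0% and 0.0235% within 100 bp and 1.77%, 1.03% and 1.55% within 1000 bp. The cause of these changes was not tested, apart from the fewer genes or positions that each alternative keeps by construction.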

Other observations

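Chromosome 1 in resilient against control mice was also outside the comparisons above. It held 418 positions there, against 151 to 414 on each of the other 18 autosomes. The share Up by gene length was 1 of 10 under 10 kb, 21.9% (12.5 to 34.0) of 64 positions at 10 to 30 kb, 29.7% of 128 at 30 to 100 kb, 41.0% of 122 at 100 to 300 kb and 42.6% (32.4 to 53.2) of 94 at 300 kb and over. In resilient against susceptible mice the same classes of chromosome 1 had 2 of 10, 38.9%, 48.0%, 53.6% and 45.4% Up.

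Of all members, 6.61% were listed with a non-coding transcript accession, and 191 of the 5522 genes were listed with several lengths, such as Ctnna3, Kcnj6, Ltbp1 and Prkg1, so that places in them refer to different transcripts.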
